A study of Piaractus mesopotamicus with 6 samples.

Results

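The genes described here carry symbols of the proteasome families psma to psmg, each followed by a digit. They were taken from the gene symbols of the deposited table, ignoring case, with 1 transcript for each symbol, the one with the highest mean over the 6 libraries. The rule found 53 of 16347 names, and all 53 passed the filter on low values. They comprise 9 alpha subunits and 7 beta subunits of the core, 5 beta subunits of the inducible type, 6 regulatory ATPases and 12 non-ATPase subunits. The rest are 5 activators, 6 assembly chaperones, the inhibitor psmf1, and psmc3ip and psme3ip1, whose names match although they are not subunits. The symbols psma2, psmb11 and psmg4 are not analysed here.

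RNA was sequenced from wild-type (WT) juveniles of the pacu, Piaractus mesopotamicus, a freshwater fish of South America, that weighed 12 to 20 g, kept at 28 °C with 12 h of light. The group of 3 libraries from cultured cells holds primary muscle cells isolated from epaxial fast-twitch muscle, where each isolation used 12 animals, and grown in a complete medium of DMEM, 10% fetal bovine serum and 1% antibiotics. The group of 3 libraries from tissue holds the epaxial fast-twitch muscle itself, from 6 animals fed a commercial diet to appetite. The labels do not say which animals or isolations went into which library, so p-values measure only the spread between these libraries, which may be technical.

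The proteasome is the barrel-shaped protease that degrades proteins tagged with ubiquitin. Its core is built of stacked rings of alpha and beta subunits, and the beta subunits psmb5, psmb6 and psmb7 hold the cutting sites. A regulatory cap of ATPase and non-ATPase subunits binds and unfolds tagged proteins, and other activators can take the cap's place. In mammals interferon induces psmb8, psmb9 and psmb10, which replace the catalytic subunits and alter the peptides made for antigen presentation. In muscle the proteasome is known for breaking down contractile proteins during wasting.

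The values are normalised read counts, that is reads divided by 1 size factor per library. The reads recovered from the values summed over all transcripts to 105795157 to 115224600 in cells and 118183731 to 124752600 in tissue. A read shared between transcripts may be counted for each of them in these sums. The size factors differed so much that 1 read was worth 0.391 to 0.439 in cells and 1.98 to 2.67 in tissue. Differences are given in log2(value + 1), cells minus tissue, with the standard error (SE) and the Benjamini-Hochberg adjusted p of limma over 65662 transcripts, and a gene is said to have risen or fallen when the adjusted p was under 0.05. The median difference over all tested names was 0.59 on the deposited scale, and 3.10 when all libraries were set to equal totals of reads, so differences are also read relative to it. Of the 14 fast fibre genes on the marker list, 14 fell in the cells, as did 8 of 10 leukocyte and 5 of 5 tested erythroid genes, and all 8 genes of dividing cells rose. These directions were the same at equal totals. Of 13 fibroblast genes 8 rose, among them fn1a by 6.64 and fn1b by 7.65, and 2 fell, and of 8 endothelial genes 6 fell, where the falls of postna and tek turned at equal totals. Of 9 genes of myogenic cells 2 rose (pax7b and cdh15), 3 fell (myod1, desma and desmb) and 4 did not pass, against 31.4% and 21.2% of all names. Normalised counts of pax7b were 925, 1051 and 1134 in cells and 428, 538 and 302 in tissue. Those of the myogenic factor myod1 were 39.9, 86.9 and 238 in cells and 1297, 1069 and 1208 in tissue.

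Of the 53 members, 12 rose in the cells (22.6%), against 31.4% of all names, and 6 fell (11.3%), against 21.2% of all names. The remaining 35 did not pass the test. With TMM scaling factors computed on the recovered reads, 10 rose and 8 fell. The median of all names was then 0.51, and no share of all names is given for that scaling. The members' median difference was 0.23 on the log2 scale, with quartiles of -0.15 and 0.87. It lay 0.36 below the median of all names on the deposited scale and at equal totals. In 17 members all cell libraries lay above all tissue libraries (41.6% of all names), in 9 all lay below (25.1% of all names), and in 27 the libraries overlapped. Of the 34 subunits of the core and cap 5 (14.7%) differed by more than 1 from 0 in log2 on the deposited scale. Of the 8110 names with a mean in the same range 58.3% did. These shares depend on the scaling, since at equal totals even psmc4, the lowest of the 34, differed by 1.88. No share of those names was computed at equal totals. That range, 101 to 2501, did not match the names in level, since all but psma7 and psma6l had means of 737 or more. The differences of the 34 had an SD of 0.55, against 2.66 for those names, a description that was not tested.

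**Figure D1:**
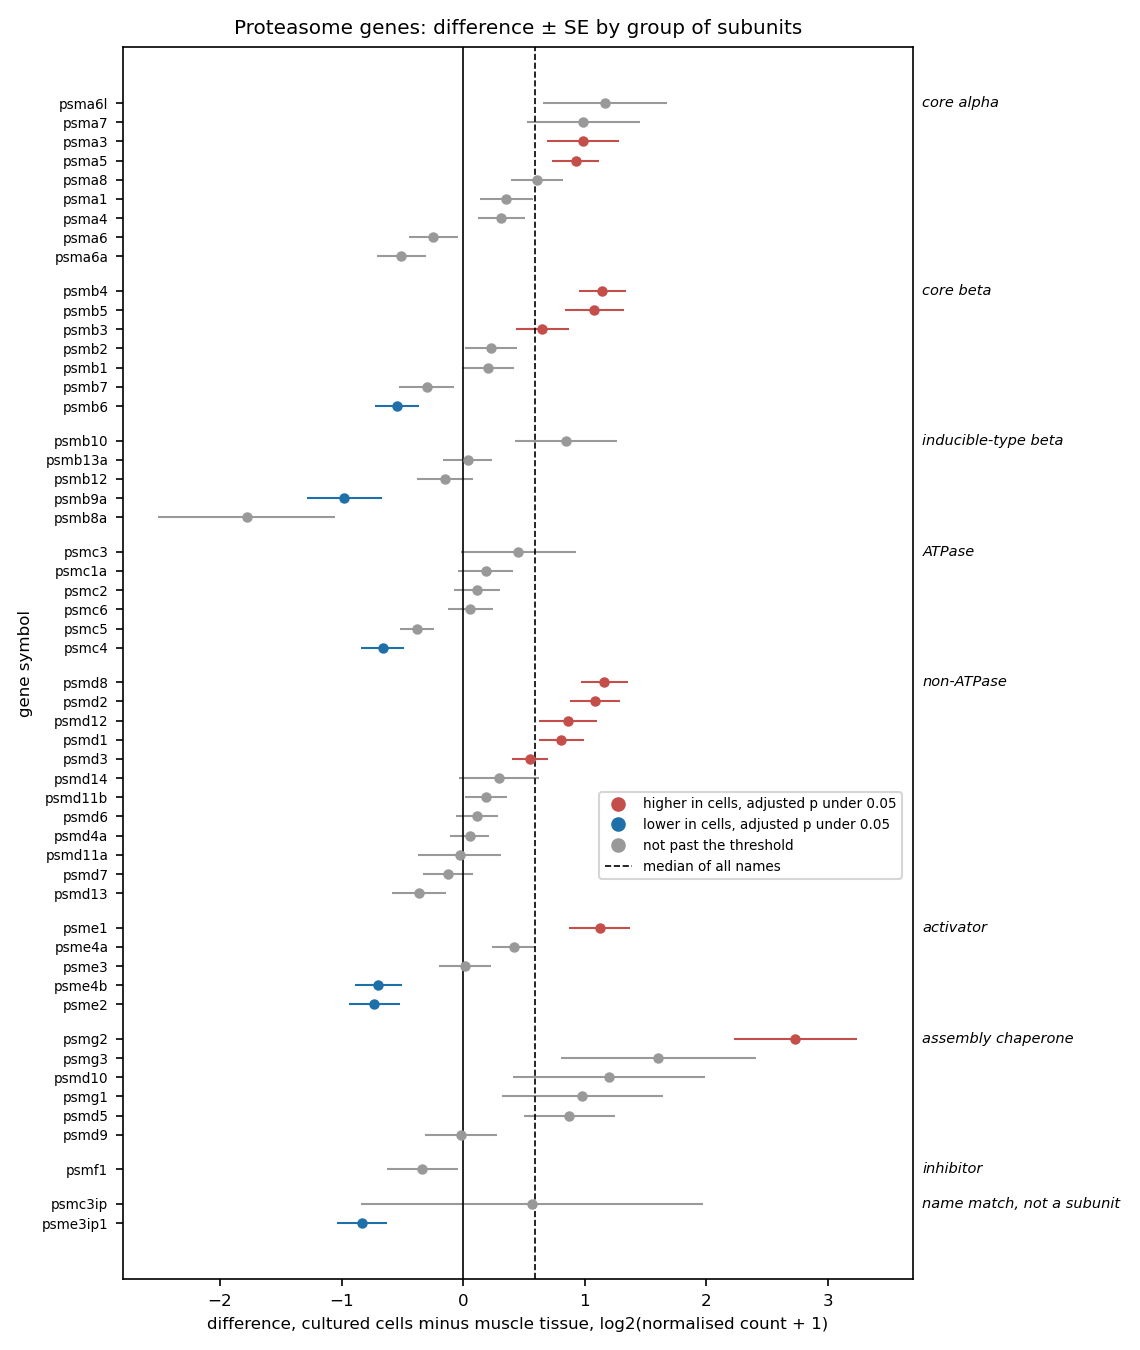
Difference between cultured cells and muscle tissue for each of the 53 members, in log2(normalised count + 1), with bars of 1 SE, by group of subunits; red rose, blue fell and grey did not pass. Of the 53 points 19 lie above the dashed median of all names at 0.59, 17 lie between 0 and that median and 17 below 0, psmg2 stands at 2.73, and the 6 blue points turn positive, at 1.55 to 2.0, when libraries are set to equal totals.

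The direction of the falls depended on the scaling. At equal totals 51 of the 53 members lay higher past the threshold, against 81.8% of all names, and no member fell, against 6.99% of all names (limma; 0 also at an unadjusted p under 0.05). All 6 members that fell on the deposited scale were among the 51, by 1.55 to 2.0, although all 6 stayed below the median of all names on both scales. The 12 that rose lay higher by 3.09 to 5.23 at equal totals, and 11 of the 12 stood above the median of all names on the deposited scale. Of the reads summed over all transcripts, the 53 transcripts took 0.108%, 0.116% and 0.103% in the cell libraries, against 0.0140%, 0.0159% and 0.0180% in tissue. Their summed normalised counts were 48748, 55239 and 47464 in cells and 44174, 39435 and 44551 in tissue, a ratio of 1.18. Each library is a bulk sample, so fewer cells of a type and less RNA per cell cannot be told apart.

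Among the alpha subunits, which form the outer rings and the gate of the core, 2 of 9 rose and the other 7 did not pass. Of all names 31.4% rose and 21.2% fell. The median difference of the alpha subunits was 0.61. The subunit psma5 had 1205, 1478 and 1040.2 normalised counts in cells and 559, 688 and 696 in tissue. All cell libraries lay above all tissue libraries, and the difference was 0.93 (SE 0.19, adjusted p = 0.0069 in limma). The subunit psma3 had 1107, 1443 and 1104 in cells and 706, 391 and 818 in tissue, a difference of 0.99 (SE 0.30, adjusted p = 0.0315 in limma). It also did not overlap, but the call was lost without cell library 1, 2 or 3, with adjusted p = 0.0714, 0.116 and 0.0734 in limma.

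The alpha subunit with the highest mean, psma1, had 1429, 1868 and 1274 normalised counts in cells and 1463, 1055 and 1050.3 in tissue, and the libraries overlapped. The difference was 0.36 (adjusted p = 0.212 in limma). Another transcript of psma1 rose by 0.72 without overlap (adjusted p = 0.0204 in limma), and a further one did not pass (0.31, adjusted p = 0.614). Summed over the name the difference was 0.44 (adjusted p = 0.144 in limma). Of the genes named for the alpha subunit psma6, psma6a had 745, 932 and 784 in cells and 1461, 1028 and 1044 in tissue, and psma6l had 304, 254 and 233 in cells and 53.5, 135 and 215 in tissue. Neither passed, at differences of -0.51 (adjusted p = 0.0733 in limma; 2.03 at equal totals) and 1.17 (adjusted p = 0.0975 in limma). For psma6l the difference was 0.62 without tissue library 1, and 1.61 without tissue library 3, where it passed (adjusted p = 0.0335 in limma). Within a library the scaling drops out of a ratio: log2 of psma6l over psma6a was -1.29, -1.87 and -1.75 in cells and -4.75, -2.92 and -2.28 in tissue. The cell ratios all lay above the tissue ratios, but this pair was chosen after the values were seen. The ratio could not overlap, since all cells lay above tissue for psma6l and below it for psma6a. Tissue library 1 held 20 reads of psma6l. The other alpha subunits, psma4, psma6, psma7 and psma8, differed by 0.31, -0.25, 0.99 and 0.61, with adjusted p of 0.217, 0.339, 0.120 and 0.0520 in limma, where the negative value of psma6 turned to 2.29 at equal totals. Of these psma7 passed without tissue library 1 (1.28, adjusted p = 0.0458 in limma) and psma8 without tissue library 3 (0.81, adjusted p = 0.0120).

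Of the 7 constitutive beta subunits 3 rose, against 31.4% of all names, 1 fell, against 21.2%, and 3 did not pass. Their median difference was 0.23. The highest rise was that of psmb4, a structural subunit of the ring, with 1969, 2250.0 and 1783 normalised counts in cells and 728, 934 and 1068 in tissue. Every cell library exceeded every tissue library, and the difference was 1.15 (SE 0.19, adjusted p = 0.0027 in limma). The structural subunit psmb3 had 1271, 1737 and 1353 in cells and 800, 1188 and 806 in tissue, a difference of 0.65 (SE 0.22, adjusted p = 0.0467 in limma). That call was lost when any cell library, tissue library 1 or tissue library 3 was left out, with adjusted p from 0.0677 to 0.155, and with voom weights or a robust prior. The structural subunits psmb1 and psmb2 differed by 0.20 and 0.23 (adjusted p = 0.453 and 0.398 in limma).

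The 3 catalytic beta subunits did not move together. The chymotrypsin-like subunit psmb5 had 1916, 2199 and 2071 normalised counts in cells and 687, 1281 and 1044 in tissue, and it rose by 1.08 (SE 0.24, adjusted p = 0.0098 in limma). The caspase-like subunit psmb6 had 1545, 1596 and 1514 in cells and 2833, 2011 and 2027 in tissue, and fell by 0.54 (SE 0.18, adjusted p = 0.0432 in limma), which became 2.0 at equal totals. The libraries of the groups overlapped in neither gene, with cells high for psmb5 and low for psmb6. The call for psmb6 was lost without cell library 1, 2 or 3, with adjusted p = 0.0974, 0.106 and 0.118 in limma. The trypsin-like subunit psmb7, the core beta gene with the highest mean, had 1696, 2390.0 and 1741 in cells and 2905, 1880.5 and 2405 in tissue, where the libraries overlapped, a difference of -0.30 (adjusted p = 0.302 in limma), or 2.24 at equal totals.

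The log2 ratio of psmb5 to psmb6 within a library was 0.31, 0.46 and 0.45 in cells and -2.04, -0.65 and -0.96 in tissue. The cell ratios lay above all tissue ratios, with a mean difference of 1.62. The exact two-sided permutation p was 0.1, the smallest that 3 against 3 libraries allow. In all, 12 such pairs were compared and 8 of them did not overlap. Taken singly, 66.7% of all names did not overlap, and no share was computed for pairs of other genes. Each of the 8 had that same exact p of 0.1, and 0.15 after Benjamini-Hochberg adjustment over the 12, so none passed the threshold. Only 5 of the 12 were set by role, the inducible genes over their constitutive counterparts and psme1 and psme2 over psme3. The other 7, psmb5 over psmb6 among them, were chosen after the values were seen. Where all cells lay above tissue in one gene and below it in the other, as here, the ratio could not overlap. The same held for psmb8a over psmb5, psma6l over psma6a, psme1 over psme2 and psme4a over psme4b. In these pairs the lack of overlap adds nothing to the values of the single genes.

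**Figure D2:**
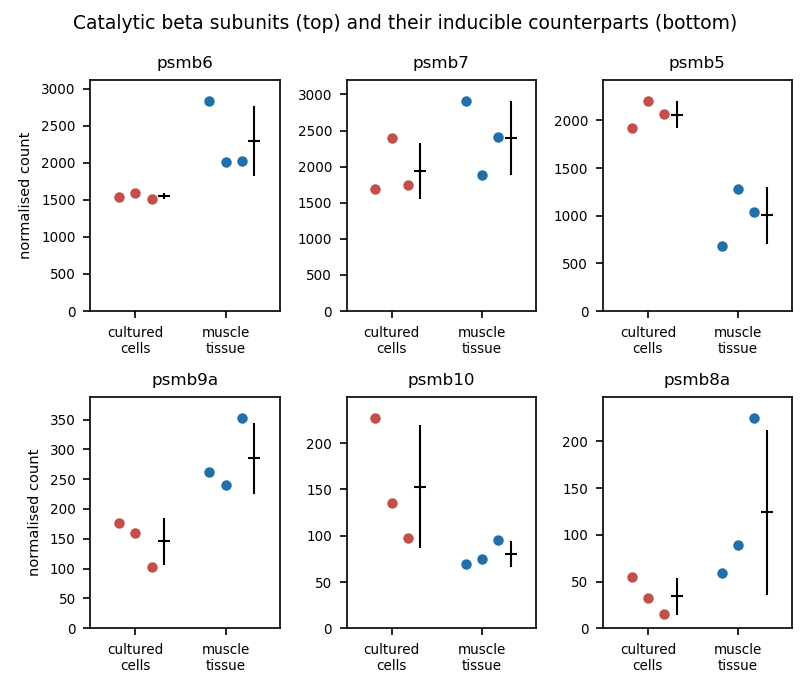
Normalised counts of the 3 catalytic beta subunits (top) and of their inducible counterparts (bottom) in each cultured cell library (red) and muscle tissue library (blue), with the mean and 1 SD as a black bar beside them. The cells lie above the tissue for psmb5 and psmb10 and below it for psmb6, psmb9a and psmb8a on the deposited scale, where the values of these 3 turn positive at equal totals.

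Of the 5 inducible-type beta subunits 1 fell, against 21.2% of all names, 0 rose, against 31.4%, and 4 did not pass. Their median difference was -0.15 (2.38 at equal totals for psmb12, the median gene). The counterpart of psmb6, psmb9a, had 177, 159.8 and 102 normalised counts in cells and 262, 240.0 and 352 in tissue. The libraries did not overlap, and the difference was -0.98 (SE 0.31, adjusted p = 0.0381 in limma), which became 1.55 at equal totals. The call was lost when any cell library or tissue library 3 was left out, with adjusted p from 0.0508 to 0.107. The counterpart of psmb5, psmb8a, had 55.1, 32.04 and 15.3 in cells and 58.8, 89.3 and 225 in tissue. The cells lay below the tissue, though cell library 1 lay close to tissue library 1. The difference of -1.78 (SE 0.73) did not pass (adjusted p = 0.0828 in limma), and it was 0.71 at equal totals (adjusted p = 0.408). It passed without tissue library 1 (-2.20, adjusted p = 0.0435) and when all transcripts of the name were summed (-1.83, adjusted p = 0.0450). It rests on few reads, 35 in cell library 3 and 22 in tissue library 1.

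The counterpart of psmb7, psmb10, had 227, 135 and 97.2 normalised counts in cells and 69.5, 75.4 and 95.5 in tissue. The cells lay above the tissue by a narrow margin, and the difference of 0.85 (SE 0.42) did not pass (adjusted p = 0.135 in limma). Tissue libraries 1, 2 and 3 held 26, 38 and 48 reads of psmb10. The genes psmb12 and psmb13a, named after relatives in zebrafish, showed overlapping libraries. The first had 209, 202 and 211 in cells and 243, 196 and 255 in tissue. The second had 456, 426 and 390.0 in cells and 356, 393 and 501 in tissue. Their differences were -0.15 (adjusted p = 0.607 in limma; 2.38 at equal totals) and 0.04 (adjusted p = 0.887), and their transcripts come from the same assembly component. Transcripts of psmb13a under different assembled genes had the same tissue values (58.8, 121 and 73.6), so reads of one transcript may count towards another.

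Set against their counterparts within each library, the inducible genes had differences of unlike sign, none of them past the threshold. The adjusted exact permutation p was 0.15 for psmb8a and psmb10 and 0.436 for psmb9a. The log2 ratio of psmb8a to psmb5 was -5.09, -6.06 and -6.99 in cells and -3.52, -3.83 and -2.21 in tissue, lower in all cell libraries, with a mean difference of -2.86. This ratio could not overlap, since all cells lay below tissue for psmb8a and above it for psmb5. The ratio of psmb10 to psmb7 was -2.90, -4.13 and -4.15 in cells and -5.36, -4.62 and -4.64 in tissue, higher in all cell libraries by 1.15. The ratio of psmb9a to psmb6 was -3.12, -3.31 and -3.88 in cells and -3.43, -3.06 and -2.52 in tissue, and overlapped (difference -0.43, exact permutation p = 0.4, two-sided).

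The genes that act with inducible subunits in antigen processing gave mixed values. Of 9 matched genes 1 rose, against 31.4% of all names, and 2 fell, against 21.2%, while 6 missed the threshold. The light chain of class I molecules, b2m, had 184, 136 and 90.6 normalised counts in cells and 1608, 1095 and 1174 in tissue, and fell by 3.27, which kept its sign at equal totals (-0.73). The interferon-responsive factor irf1b fell by 1.31, which became 1.22 at equal totals, and the interferon gamma receptor chain ifngr2 rose by 2.88. The peptide transporter genes tap1 and tap2a differed by 0.28 and -1.61 (adjusted p = 0.362 and 0.0697 in limma). Leukocytes carry inducible subunits, and the summed level of the 10 matched leukocyte markers was 402, 419 and 293 in cells and 9884, 6867 and 7310.5 in tissue. Of these 8 fell, lcp1 and laptm5 were at 0 in all cell libraries, and cd74a had 1.17, 0.878 and 0.872 in cells and 3082, 2071 and 2560.2 in tissue. Their part in the values of psmb9a and psmb8a was not tested.

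Of the 6 regulatory ATPases, the motor ring of the cap, 1 fell and 5 did not pass. Of all names 21.2% fell and 31.4% rose. On the 1 transcript chosen for each name, all 6 lay below the median of all names, with a median difference of 0.09. The ATPase psmc4, which also had the highest mean of its group, had 1223, 1471 and 1114 normalised counts in cells and 2290, 1809 and 1920 in tissue. The libraries did not overlap, and psmc4 fell by 0.66 (SE 0.18, adjusted p = 0.0192 in limma), which became 1.88 at equal totals. Without cell library 1 or 3 the adjusted p was 0.0564 and 0.0713. The largest positive difference was that of psmc3, with 1022, 1064 and 1133 in cells and 342, 1101 and 1265 in tissue. Tissue library 1 alone stood low, the difference was 0.46 (SE 0.47, adjusted p = 0.450 in limma), and without that library it was -0.14.

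The ATPases psmc2, psmc5 and psmc6 differed by 0.11, -0.38 and 0.06 (adjusted p = 0.634, 0.0586 and 0.807 in limma), with psmc5 at 2.16 at equal totals. For psmc1a the transcript with the highest mean had 846, 748 and 881 in cells and 811, 532 and 879 in tissue, and the libraries overlapped. A second assembled gene of the same name had 1007, 1133 and 1039.8 in cells and 401, 214 and 273 in tissue and rose by 1.88 (SE 0.25, adjusted p = 0.000896 in limma). Summed over all its transcripts, psmc1a rose by 0.86 (adjusted p = 0.0174 in limma), so the verdict for this name depends on which assembled gene stands for it. The median of all names was 0.61 in that fit, so psmc1a did not lie below it there.

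Of the 12 non-ATPase subunits 5 rose, against 31.4% of all names, 0 fell, against 21.2%, and 7 did not pass. Their median difference was 0.24. The scaffold subunits psmd1 and psmd2, which hold ubiquitin receptors and contact the ATPase ring, both rose. The first had 3065, 3262 and 3181 normalised counts in cells and 1458, 1829 and 2212 in tissue, a difference of 0.81 (SE 0.19, adjusted p = 0.0107 in limma). The second had 2721, 3140 and 2780 in cells and 1760.1, 1264 and 1116 in tissue, a difference of 1.09 (SE 0.20, adjusted p = 0.0043 in limma). In both genes every cell library exceeded every tissue library.

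The lid subunit psmd8 had the largest difference of the group, with 1691, 2212 and 1843 normalised counts in cells and 695, 909 and 973 in tissue. It rose by 1.16 (SE 0.19, adjusted p = 0.0025 in limma) without overlap. The lid subunit psmd12 had 985, 1155 and 1191 in cells and 436, 762 and 674 in tissue, a rise of 0.86 (SE 0.24, adjusted p = 0.0229 in limma), lost without cell library 2 or 3 (adjusted p = 0.0820 and 0.0810). The lid subunit psmd3 had 1530.2, 1453 and 1583 in cells and 928, 1109 and 1094 in tissue. It rose by 0.55 (SE 0.15, adjusted p = 0.0208 in limma), slightly less than the median of all names. The call for psmd3 was lost without cell library 1, 2 or 3 (adjusted p from 0.0517 to 0.0698). A second assembled gene named psmd3 had 959, 922 and 930 in cells and 1067, 972 and 837 in tissue, and summed over the name the difference was 0.25 (adjusted p = 0.169 in limma).

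The largest negative difference among the non-ATPase subunits, that of the lid subunit psmd13, did not pass. It had 1015, 1307 and 897 normalised counts in cells and 1699, 1121 and 1335 in tissue, a difference of -0.36 (adjusted p = 0.213 in limma; 2.17 at equal totals). A separate assembled gene written PSMD13 in capitals had 112, 106 and 85.9 in cells and 5.35, 19.8 and 11.9 in tissue and rose by 3.09 (SE 0.66, adjusted p = 0.0079 in limma), on 2 reads in tissue library 1. Of the paralogs of another lid subunit, psmd11a had 840.0, 729 and 738 in cells and 1359, 551 and 639 in tissue, and psmd11b had 752, 843 and 757 in cells and 634, 807 and 631 in tissue. Neither passed and their ratio overlapped between groups (exact permutation p = 0.8, two-sided). The deubiquitinase psmd14 and the ubiquitin receptor psmd4a differed by 0.30 and 0.06 (adjusted p = 0.475 and 0.788 in limma), and psmd6 and psmd7 by 0.12 and -0.13 (adjusted p = 0.591 and 0.632; psmd7 2.41 at equal totals).

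**Figure D3:**
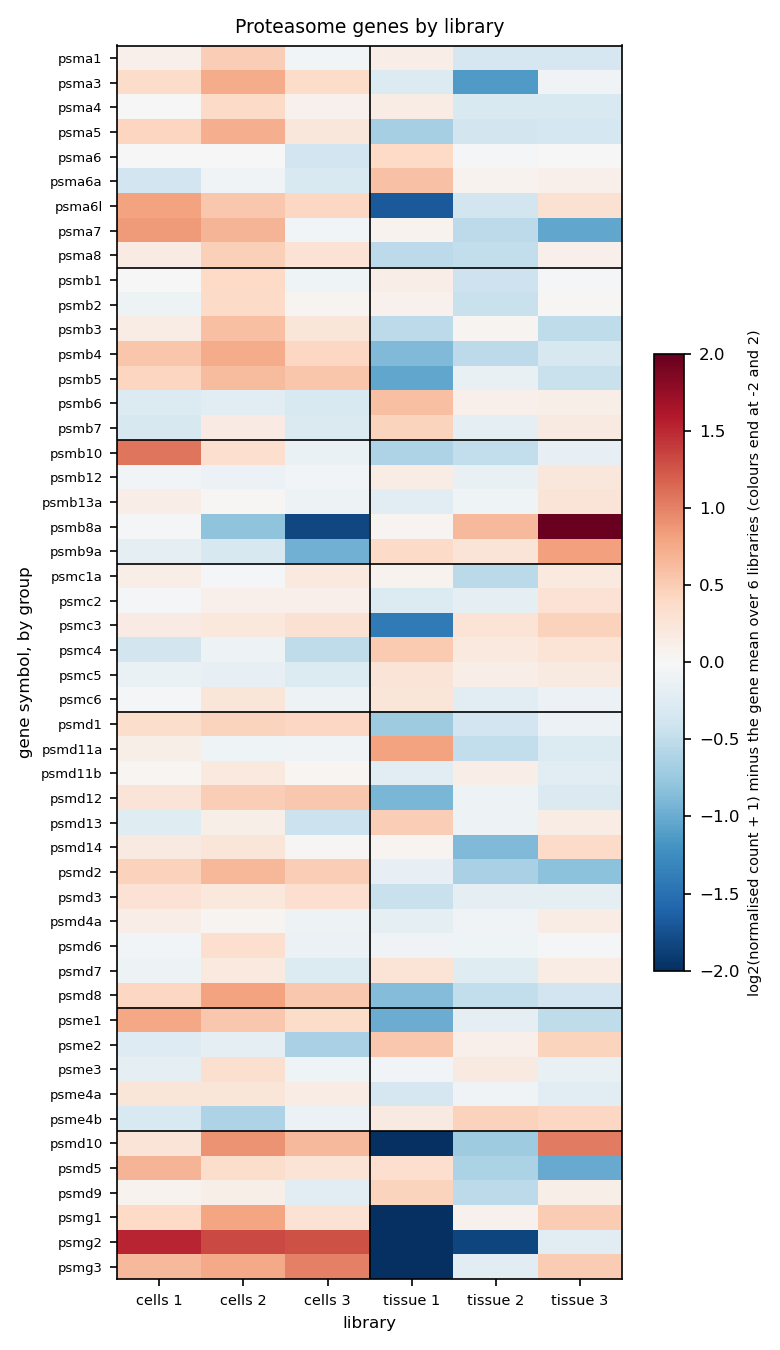
Heat map of log2(normalised count + 1) minus the gene's mean over the 6 libraries, for the subunits, activators and chaperones by group (psmf1, psmc3ip and psme3ip1 left out), with colours that end at -2 and 2. Tissue library 1 is dark for psma6l, psmc3 and several chaperones at the bottom, and psmb8a and psmb9a are darkest blue in cell library 3.

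Of the 5 activators 1 rose, against 31.4% of all names, 2 fell, against 21.2%, and 2 did not pass. Their median difference was 0.01. The genes psme1 and psme2 encode the alternating subunits of an interferon-inducible activator ring in mammals. The first had 756, 639 and 571 normalised counts in cells and 222, 387 and 308 in tissue, and rose by 1.12 (SE 0.25, adjusted p = 0.0099 in limma). The second had 478, 504 and 364 in cells and 832, 617 and 784 in tissue, and fell by 0.73 (SE 0.21, adjusted p = 0.0265 in limma), which became 1.81 at equal totals. Neither overlapped between groups, with cells high for psme1 and low for psme2 on the deposited scale. The log2 ratio of psme1 to psme2 was 0.66, 0.34 and 0.65 in cells and -1.90, -0.67 and -1.34 in tissue, a mean difference of 1.85. This pair was chosen after the values were seen, its ratio could not overlap given the single genes, and its adjusted exact permutation p was 0.15. The call for psme2 was lost when library 1 or 3 of either group was left out (adjusted p from 0.0526 to 0.0844 in limma).

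The nuclear activator psme3, which forms rings of its own, had 367, 525 and 396 normalised counts in cells and 407, 480.0 and 380 in tissue. Its libraries overlapped and the difference was 0.01 (SE 0.22, adjusted p = 0.963 in limma). Set against it within each library, psme1 was higher in all cell libraries, by a mean log2 ratio of 1.11, while the ratio of psme2 overlapped (difference -0.74, exact permutation p = 0.2, two-sided).

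The large single-chain activator, known in mammals for nuclear and histone degradation, has the paralogs psme4a and psme4b. The first had 448, 451 and 419 normalised counts in cells and 299.6, 361 and 328 in tissue, a difference of 0.42 (SE 0.18) that did not pass (adjusted p = 0.0958 in limma). The second had 653, 528 and 747 in cells and 915, 1113 and 1080.2 in tissue, and fell by 0.70 (SE 0.19, adjusted p = 0.0213 in limma), which became 1.84 at equal totals. Neither overlapped between groups, with cells high for psme4a and low for psme4b on the deposited scale. Their log2 ratio, psme4a over psme4b, was -0.54, -0.23 and -0.83 in cells and -1.61, -1.62 and -1.72 in tissue, a mean difference of 1.11. That pair too was chosen after the values were seen, and its ratio could not overlap given the single genes (adjusted exact permutation p = 0.15). The transcripts come from the same assembly component, so reads of one may count towards the other. The call for psme4b was lost when cell library 1 or 2, or tissue library 2 or 3, was left out (adjusted p from 0.0528 to 0.0737).

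**Figure D4:**
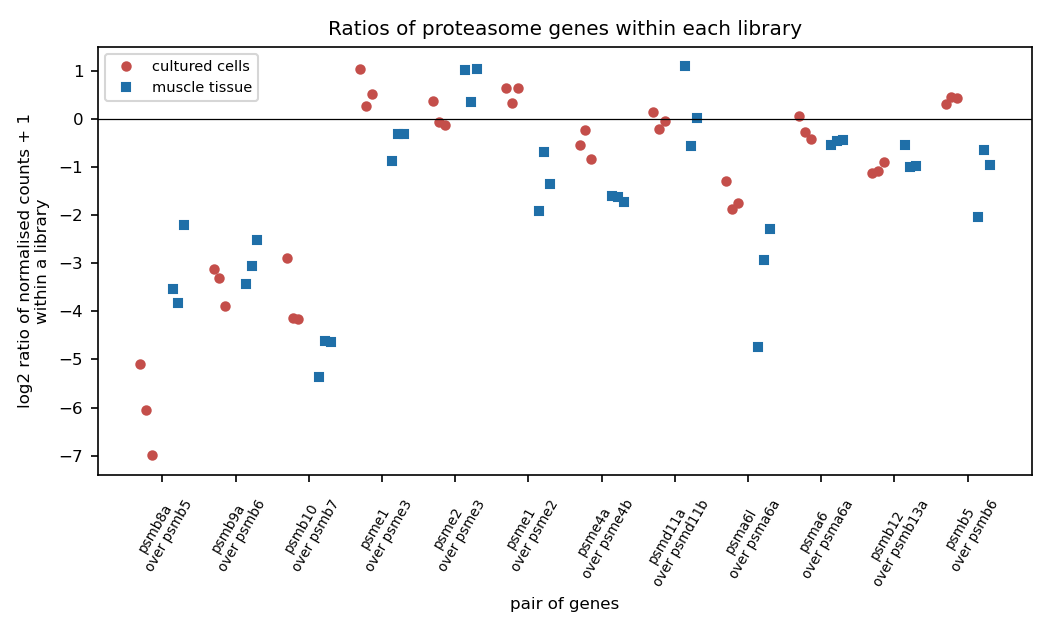
Log2 ratio of the normalised counts (each plus 1) of 12 pairs of proteasome genes within each cultured cell library (red circles) and muscle tissue library (blue squares), which no scaling of whole libraries changes beyond the added count. The groups do not overlap in 8 pairs, with psmb8a over psmb5 lower in cells and psme1 over psme2 and psme4a over psme4b higher. In each of these named pairs cells lay above tissue in one gene and below it in the other. Their ratios therefore could not overlap. Taken singly, 66.7% of all names did not overlap. None of the 12 pairs passed after adjustment, and psme1 over psme2 and psme4a over psme4b were chosen after the values were seen.

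Of the 6 assembly chaperones 1 rose, against 31.4% of all names, 0 fell, against 21.2%, and 5 did not pass. Their median difference of 1.09 rested on tissue library 1, since it was 0.55 without that library, and it was 1.75 without tissue library 3. The chaperone psmg2, which with psmg1 builds the alpha ring, had 454, 395 and 381 normalised counts in cells and 37.4, 43.6 and 135 in tissue. The mean ± SD of 3 libraries was 410 ± 38.5 in cells and 72.1 ± 54.8 in tissue, a 5.69-fold ratio. The difference of 2.73 (SE 0.50, adjusted p = 0.0041 in limma) was the largest of the 53 members and ranged from 2.40 to 3.31 without any 1 library. Tissue libraries 1, 2 and 3 held 14, 22 and 68 reads of psmg2. Its partner psmg1 had 210, 277 and 194 in cells and 37.4, 169 and 227 in tissue, and the libraries overlapped. It differed by 0.98 (SE 0.66, adjusted p = 0.254 in limma), or by 0.20 without tissue library 1.

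The chaperone psmg3, which acts beside them on the alpha ring, had 173, 187 and 224 normalised counts in cells and 16.0, 95.2 and 157 in tissue. The cells lay above the tissue, yet the difference of 1.61 (SE 0.80) did not pass (adjusted p = 0.139 in limma). It rested on 6 reads in tissue library 1, and without that library was 0.66. The chaperones of the ATPase ring are psmd5, psmd9 and psmd10, the last also known as gankyrin. The first had 406, 323 and 308 in cells and 318, 163 and 125 in tissue (difference 0.87, adjusted p = 0.0924 in limma), and passed without tissue library 1 (1.26, adjusted p = 0.0069). The second had 313, 321 and 258 in cells and 404, 206 and 322 in tissue (difference -0.02, adjusted p = 0.965; 2.51 at equal totals). The last had 102, 159 and 134 in cells and 18.7, 51.6 and 175 in tissue (difference 1.20, adjusted p = 0.243). Without tissue library 1 the difference of psmd10 was 0.44 (adjusted p = 0.536 in limma), and without tissue library 3 it was 2.02 and passed (adjusted p = 0.0348). All of these overlapped, and tissue library 1 was lowest for psmd10 and highest for psmd9.

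The inhibitor psmf1, which binds the core, had 397, 290.1 and 241 normalised counts in cells and 471, 279.7 and 424 in tissue. Its libraries overlapped and the difference of -0.34 (SE 0.29, adjusted p = 0.372 in limma; 2.20 at equal totals) did not pass. Of the name matches, psmc3ip, a partner of meiotic recombinases, had 19.2, 12.7 and 10.5 in cells and 0, 45.6 and 19.9 in tissue. The other, psme3ip1, which binds psme3 in mammals, had 336, 238 and 302 in cells and 529.6, 468 and 553 in tissue. It fell by 0.83 (SE 0.21, adjusted p = 0.0150 in limma), which became 1.70 at equal totals, and the call was lost without cell library 2 (adjusted p = 0.0518).

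**Figure D5:**
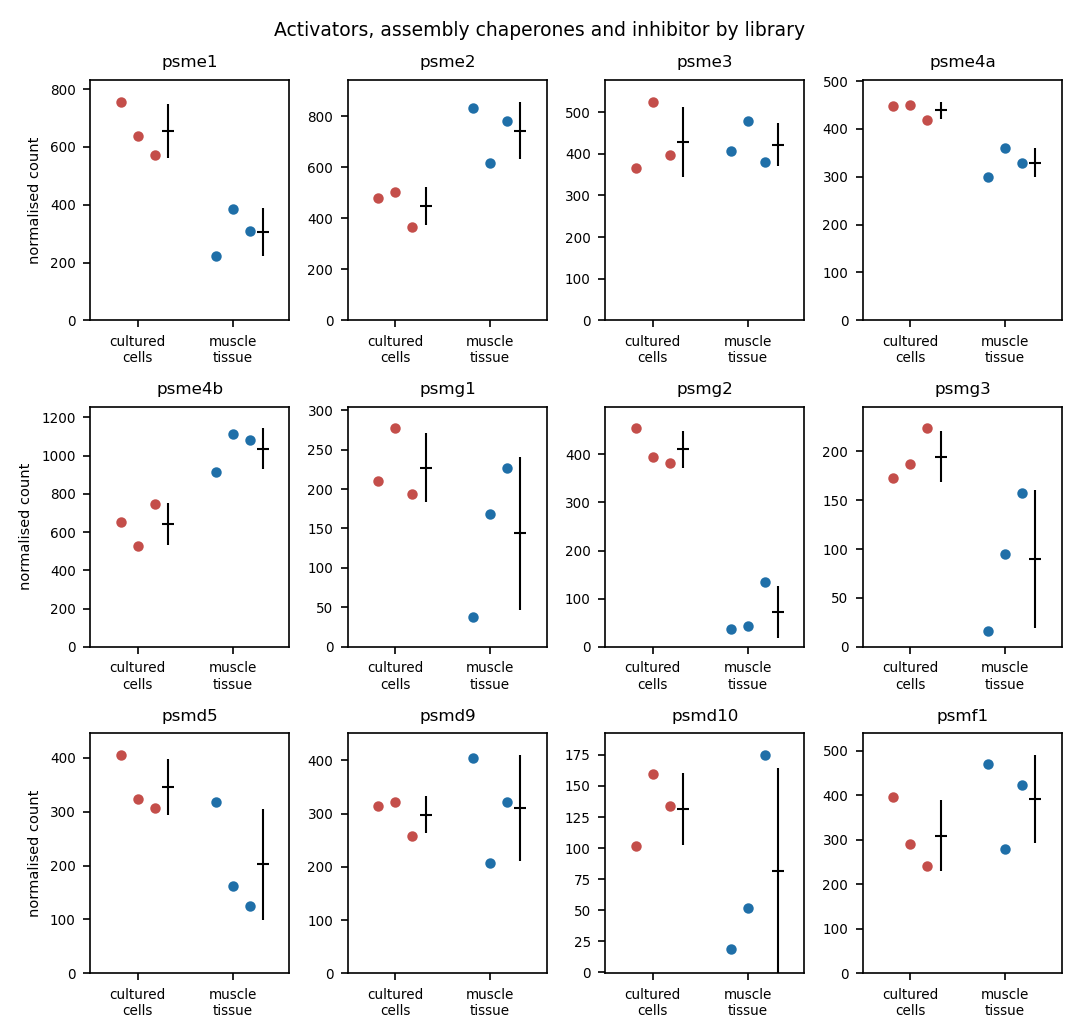
Normalised counts of the 5 activators, the 6 assembly chaperones and the inhibitor psmf1 in each cultured cell library (red) and muscle tissue library (blue), with the mean and 1 SD as a black bar. Cells lie above tissue for psme1, psme4a, psmg2 and psmg3 and below it for psme2 and psme4b, whose differences turn positive at equal totals.

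Of the 12 rises, 8 passed the threshold in each fit that left out 1 library: psma5, psmb4, psmb5, psmd1, psmd2, psmd8, psme1 and psmg2. None of the 6 falls did so in limma, where each lost its call without at least 1 library, all of them without at least 1 cell library. The falls ran from -0.98 to -0.54 and the 12 rises from 0.55 to 2.73. No share of all names is given for these fits. With voom weights 11 members rose (32.8% of all names) and 6 fell (21.7%), and with a robust prior 11 rose (31.3% of all names) and 6 fell (21.2%). Over all 172 tested transcripts of these names, 44 rose, against 27.4% of all transcripts, and 14 fell, against 19.7%, with a median difference of 0.22. Transcripts of the same name may share reads, so they are not independent of each other.

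Of 6 matched genes that control proteasome transcription 4 rose, against 31.4% of all names, and 2 did not pass, with a median difference of 1.25. Those 2 were nfe2l1a and ddi2, with differences of 0.85 and 0.66 (adjusted p = 0.375 and 0.0726 in limma). The factor nfe2l1, which in mammals raises proteasome genes when the protease is inhibited, had 846, 937 and 808 normalised counts in cells and 463, 623 and 662 in tissue and rose by 0.58 (SE 0.19, adjusted p = 0.0437 in limma), close to the median of all names. The enzyme ngly1, which processes that factor, had 194, 187 and 208 in cells and 21.4, 79.3 and 39.8 in tissue and rose by 2.23. The oxidative stress factor nfe2l2a had 1759, 1390 and 1349 in cells and 479, 442 and 515 in tissue and rose by 1.64. Its paralog nfe2l2b averaged 75.8 in cells and was at 0 in all tissue libraries, at least 11.4-fold higher against the mean tissue floor of 6.65 (3 counts per library).

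Accessory and assembly factors gave 3 rises, 2 falls and 8 genes that did not pass among 13 matched. Of all names 31.4% rose and 21.2% fell. The gene akirin2, known in mammals for the nuclear import of proteasomes, had 2226, 2749 and 2996 normalised counts in cells and 679, 559 and 1184 in tissue and rose by 1.78 (SE 0.29, adjusted p = 0.0024 in limma). Its relative akirin1 rose by 0.72 and the ubiquitin ligase ube3c by 0.92. The ligase subunit fbxo7 and zfand5b fell by 1.53 and 1.30, which became 1.00 and 1.24 at equal totals. The assembly factor pomp differed by 0.09 and the ubiquitin receptor adrm1 by -0.42 (adjusted p = 0.768 and 0.145 in limma).

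In the ubiquitin list 5 of 12 genes rose, against 31.4% of all names, 4 fell, against 21.2%, and the test was not passed by 3. The activating enzymes uba1 and uba6 rose by 1.18 and 1.90, the ubiquitin gene ubb by 0.77, the shuttle rad23b by 0.71 and the segregase vcp by 2.28. The gene vcp had 3240.3, 3876 and 3943 normalised counts in cells and 677, 863 and 742 in tissue (SE 0.17, adjusted p = 7.76e-05 in limma). The ribosomal fusion gene rps27a fell by 2.01 and the shuttle ubqln4 fell by 0.63, which became 0.53 and 1.91 at equal totals. The shuttle rad23ab had 357, 258 and 205 in cells and 3411, 2295 and 2126 in tissue, and fell by 3.26, or by 0.72 at equal totals.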

How the data were processed

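The 6 libraries analysed were 3 of cultured cells and 3 of muscle tissue. Per the labels' protocols, TRIzol was used to extract RNA, and a stranded TruSeq mRNA kit to prepare poly(A) libraries. The submitters' processing notes list the build GRCz11 and the tools Bowtie2, DESeq2, Trimmomatic and FastQC 0.11.8, without saying in which step each served. How reads were counted, and how reads shared between transcripts were treated, is not given in the sources used here. Some transcripts of the same name had equal or near-equal values, so sums over transcripts may count the same reads repeatedly. A single table deposited by the authors holds normalised counts of 71447 assembled transcripts, written with decimal commas, each with a symbol or an identifier. Blank lines, 977128 in number, were left out. Dividing each value by its library's smallest nonzero value gave whole numbers, within 0.01, in 100% of cases, and these were taken as reads. Floors of 3 counts cover counting error only.

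The fit used log2(value + 1) and limma 3.58.1 (R 4.3.3) with a trended prior, 4 residual and 2.93 prior degrees of freedom, on transcripts with 10 or more in at least 3 libraries. Folds of low genes come out too small on such a scale. The fit runs over all 65662 transcripts. A quasi-likelihood count model was planned as an alternative and not run. A check of the unit did not read values with decimal commas as numbers, so they were not classed as counts. Whole reads could still be recovered, and voom weights on them were used instead. All names means 13017 tested names other than bare Ensembl identifiers, or 13221 at equal totals, where the filter was applied to the rescaled values. Medians of all names in other fits were taken over the names tested there. Members and lists were chosen with earlier results of these data known. Values per library are given for the member with the highest mean and those with the largest positive and negative difference in each group, all inducible-type, activator, chaperone and inhibitor genes, and all paralog pairs. Further members past the threshold, second assembled genes and genes of the lists were added after their values were seen. Related lists were matched ignoring case and a or b suffixes, and marker lists ignoring case.

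Libraries of one group differed beyond sampling noise (chi-square divided by its degrees of freedom, 47.8 to 211.7), so none was a duplicate. Alternatives were pseudocounts of 0.5 and 5, no filter, a filter of 50, equal totals of reads, TMM factors on recovered reads, voom, a robust prior, a replicate block, transcripts summed by name and leaving out each library. Other tools were matplotlib 3.10.9, scipy 1.17.1, numpy 2.4.6, pandas 2.3.3 and Python 3.11.15. No genome was used, so no positions or sequences are given. A gene of the ubiquitin list is counted but not reported here by name.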

Additional observations from a re-analysis of the deposited data

How the results depend on the processing

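Setting libraries to equal totals moved the most results. It gave 53811 transcripts higher in cells and 4965 lower, and 51 members higher and 0 lower (limma; 0 also at an unadjusted p under 0.05, and voom was not run on that scale), with a median of 2.74. The member median relative to all names was unchanged at -0.36. Reversed to higher in cells were psma6 (2.29), psma6a (2.03), psmb6 (2.0), psmb7 (2.24), psmb12 (2.38), psmb8a (0.71), psmb9a (1.55), psmc4 (1.88), psmc5 (2.16), psmd11a (2.51), psmd13 (2.17), psmd7 (2.41), psme2 (1.81), psme4b (1.84), psmd9 (2.51), psmf1 (2.20) and psme3ip1 (1.70).

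Leaving out 1 library gave 11964 to 20095 transcripts higher, 10750 to 13686 lower, 8 to 14 members higher, 1 to 6 lower and a member median of 0.109 to 0.302. Falls numbered 1, 2 and 2 without cell library 1, 2 or 3 and 3 without tissue library 3, with 2 libraries in the smaller group. Some differences that did not pass in any of these fits changed sign: psmb13a (-0.07 to 0.18), psmc1a (-0.04 to 0.33), psmc3 (-0.14 to 0.80), psmc6 (-0.05 to 0.19), psmd4a (-0.02 to 0.15), psmd6 (-0.02 to 0.20), psmd11a (-0.28 to 0.37), psmd14 (-0.07 to 0.56), psme3 (-0.14 to 0.12), psmd9 (-0.28 to 0.20) and psmc3ip (-1.09 to 1.68). With all libraries psmc3 and psmc3ip differed by 0.46 and 0.57, and both turned negative only without tissue library 1. TMM turned psmb13a (-0.05), psmc6 (-0.03), psmd4a (-0.03) and psme3 (-0.07), voom turned psmd11a (0.02) and psmd9 (0.02), and summing turned psmd11a (0.03). The cause was not tested.

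Same-numbered libraries of both groups deviated with correlations of -0.063, -0.045 and -0.017. This shows no shared deviation, but it cannot tell whether the replicate numbers pair the libraries, since paired cells and tissue need not deviate alike. With the replicate block 11 members rose and 3 fell, against 12 and 6 without it, and psmb6, psmb9a, psmd3 and psme2 lost their call. TMM gave 10 and 8, voom, a robust prior and summed transcripts 11 and 6, a filter of 50 and a pseudocount of 5 both 13 and 6, and the other settings 12 and 6. No share of all names is given for the block, TMM, summing, filters, pseudocounts or fits that leave out a library. Psmb3 lost its call under TMM, voom, the robust prior and summing, psmd3 under TMM and summing, and psmb6 under summing. Low reads in tissue library 1, from 6 to 22 for psma6l, psmg1, psmg2, psmg3, psmd10 and psmb8a, limit what can be shown for these genes. In that library 23.6% of all transcripts were at 0, against 12.6% in each of tissue libraries 2 and 3. Its recovered reads summed to 118183731, against 124715222 and 124752600 there, and the cause was not tested. The planned quasi-likelihood count test was not run, psmc3ip had no value with a filter of 50, and transcripts summed by name give no count over transcripts.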

Other observations

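Members had 20 further assembled genes beside the leading one. In 11 of them, under 10 names (psma8, psmb4, psmb5, psmb6, psmb7, psmb8a, psmc3, psmd13, psmd2 and psmd3), tissue library 1 was highest and cell library 1 lowest. Cell library 1 held at most 0.782 normalised counts and was at 0 in 10, and the other cell libraries held 4.39 to 24.0. Tissue library 1 held 21.4 to 133.7, and the other tissue libraries held 0 to 39.8. This order of libraries occurred in 6.31% of all transcripts and in 5.10% of the 36570 with a mean under 100. The pattern was noticed after the values were seen and was not tested.

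Cell library 2 was the highest of the cell libraries in 30 of the 53 members (56.6%), against 35.2% of all names, and cell library 3 the lowest in 30, against 34.2% of all names. In tissue, library 1 was the lowest in 24 members (45.3%), against 47.5% of all names, and library 2 in 23 (43.4%), against 27.0% of all names. These shares are descriptions and were not tested, since members are not independent of each other.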
